A study of Mus musculus with 4 samples.

Results

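The constitutive proteasome subunits of Mnk3 cells were examined before and after stimulation with IL-1b and IL-23. Members were the protein-coding genes whose symbol in GENCODE M21 begins with Psma, Psmb, Psmc or Psmd and a number, without Psmb8, Psmb9, Psmb10 and Psmb11 and with at least 100 counts summed over the 4 libraries. The symbol rule found 36 genes and the count minimum kept 35 of the 41388 genes listed in the count tables. Of these, 14 encode the core particle (7 Psma and 7 Psmb genes) and 21 carry a symbol of the regulatory particle (7 Psmc and 14 Psmd genes). The least abundant member kept was Psma5 with 2336 summed counts, and the 1 gene left out was Psma8, a testis alpha subunit, with 2 counts. The symbol pattern also takes Psmd5, Psmd9 and Psmd10, chaperones that help to build the regulatory particle, and Psmc3ip, a recombination factor that is not a proteasome subunit, so 31 members are parts of the finished particle.

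Mnk3 is a line of mouse cells used as a model of group 3 innate lymphoid cells, which make IL-22 and IL-17 at mucosal surfaces. The control group held 2 libraries of untreated Mnk3 cells and the stimulated group 2 libraries of Mnk3 cells given IL-1b and IL-23, each at 10 ng/ml, for about 16 h. All RNA came from this 1 line, and ribosomal RNA was depleted from total RNA. Libraries numbered 1 here carry rep1 in their title and those numbered 2 carry no number. Because the labels name no separate cultures, p-values measure no more than how far these libraries vary, and that variation may be technical.

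The proteasome is the main protease of the cytosol and nucleus and degrades proteins tagged with ubiquitin. Its core is a barrel of stacked rings: outer alpha rings guard the entrance, and inner beta rings hold the proteolytic sites. A regulatory cap binds the alpha ring, with a base of ATPases that unfold substrates and a lid that removes the ubiquitin chain. In cells exposed to inflammatory cytokines the catalytic beta subunits can be replaced by inducible ones, which form the immunoproteasome, and the remaining subunits are shared between both kinds of particle.

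Upstream sequences are shown for 6 members, chosen with their changes known: the steepest riser of each of the 4 symbol classes that has a promoter entry, and Psmd8 and Psmc3ip, whose changes were small. Each run is the 250 bases before the RefSeq start in GRCm38.p6, read 5′ to 3′ along the gene, and 29 of the 35 members matched an entry. Psmb1, Psmb2, Psmb7, Psmc3, Psmd3 and Psmd7 have none in the table. The windows lie at chr12:55383972-55384221 on the plus strand for Psma6, chr11:70525107-70525356 on the plus strand for Psmb6, chr14:45329574-45329823 on the plus strand for Psmc6, chr14:14120946-14121195 on the minus strand for Psmd6, chr7:29180674-29180923 on the minus strand for Psmd8 and chr11:101095436-101095685 on the minus strand for Psmc3ip. Capitals mark every match, on either strand, to 1 of 6 motifs: the antioxidant response element as TGACNNNGC or TGAGNNNGC, the CCAAT box (CCAAT), the GC box (GGGCGG), an ETS core (CCGGAAG) and a form of the NF-kB site (GGG, any 3 bases, TTCC).
Psma6: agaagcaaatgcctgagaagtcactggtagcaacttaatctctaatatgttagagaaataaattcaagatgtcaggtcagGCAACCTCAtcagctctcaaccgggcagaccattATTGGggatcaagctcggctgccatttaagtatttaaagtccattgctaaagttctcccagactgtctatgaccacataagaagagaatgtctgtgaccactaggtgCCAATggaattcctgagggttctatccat
Psmb6: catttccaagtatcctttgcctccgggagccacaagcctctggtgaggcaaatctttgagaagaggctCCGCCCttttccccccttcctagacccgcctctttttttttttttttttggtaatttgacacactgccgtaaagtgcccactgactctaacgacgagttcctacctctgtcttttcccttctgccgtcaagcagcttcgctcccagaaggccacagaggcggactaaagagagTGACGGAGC
Psmc6: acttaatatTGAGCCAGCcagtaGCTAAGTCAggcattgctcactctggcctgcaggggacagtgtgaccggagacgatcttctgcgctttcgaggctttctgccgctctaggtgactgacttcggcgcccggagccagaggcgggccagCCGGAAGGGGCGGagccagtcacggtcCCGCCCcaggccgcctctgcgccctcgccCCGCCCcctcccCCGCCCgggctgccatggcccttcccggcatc
Psmd6: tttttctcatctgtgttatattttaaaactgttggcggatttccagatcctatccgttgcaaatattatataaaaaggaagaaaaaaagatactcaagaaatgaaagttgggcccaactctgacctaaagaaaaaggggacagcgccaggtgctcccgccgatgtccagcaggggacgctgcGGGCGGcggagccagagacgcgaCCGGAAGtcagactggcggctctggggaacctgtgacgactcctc
Psmd8: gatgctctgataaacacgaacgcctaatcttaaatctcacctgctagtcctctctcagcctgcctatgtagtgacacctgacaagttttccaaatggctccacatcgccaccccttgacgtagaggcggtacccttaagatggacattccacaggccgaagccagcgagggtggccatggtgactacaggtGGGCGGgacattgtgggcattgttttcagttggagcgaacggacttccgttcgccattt
Psmc3ip: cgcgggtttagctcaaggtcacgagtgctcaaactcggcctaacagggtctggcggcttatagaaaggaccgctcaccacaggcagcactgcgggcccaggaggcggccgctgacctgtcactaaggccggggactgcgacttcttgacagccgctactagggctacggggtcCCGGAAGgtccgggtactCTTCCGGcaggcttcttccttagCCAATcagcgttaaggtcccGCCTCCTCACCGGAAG

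Among all 29 member windows, 5 held TGACNNNGC (17.2%, against 10.1% of 27025 promoters of the same length in the table) and 8 held TGAGNNNGC (27.6% against 14.2%). The CCAAT box occurred in 12 (41.4% against 34.5%), the GC box in 17 (58.6% against 32.9%) and the NF-kB form in 2 (6.9% against 4.6%). CCGGAAG occurred in 9 of the 29 windows (31.0% against 7.1%), all of them among the 18 regulatory members, and in none of the 11 core members. In the sequences printed, Psma6 has CCAAT boxes that begin 136 and 29 bases before the start, Psmb6 has TGACNNNGC at 9 bases, and Psmc6 and Psmd6 each have 1 ETS core, at 100 and 45 bases. Psmd8 has a single match, to the GC box, and Psmc3ip has 3 ETS cores. The motif letters overlap in part with one another and were chosen with the expression results known; a match describes letters and does not show that a factor binds.

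Summed gene counts ranged from 23047723 to 29078765 per library. Levels are given as CPM (counts relative to the TMM-scaled library size), by library or as the mean and SD of the 2 libraries of a group, and changes as log2 of stimulated over control ± SE from edgeR's quasi-likelihood test over 13838 genes. Each SE is approximate and was derived from the change and its F statistic. In these bulk libraries more cells of a kind and more RNA per cell cannot be told apart. All 10 listed markers of group 3 innate lymphoid cells were measured, and 3 rose, 4 fell and 3 did not pass. Among all genes tested 17.5% were higher and 18.3% lower. Kit went from 1124 ± 251 CPM (n = 2) in controls to 279 ± 60.5 CPM (n = 2), Il1r1 from 213 ± 3.18 to 25.3 ± 6.85 CPM and Gata3 from 46.8 ± 8.84 to 21.5 ± 6.05 CPM (n = 2 each). Il23r was at 223 ± 5.54 CPM (n = 2) in controls and 109 ± 14.9 CPM (n = 2) after stimulation, and Il22 at 2.72 ± 0.706 and 1225 ± 520 CPM (n = 2 each). Il7r, at 221 ± 88.8 and 26.1 ± 19.6 CPM (n = 2 each), did not pass. Markers of other cells were low: 4 T cell genes summed to between 11 and 19.8 CPM, nearly all Cd3d, and 3 B cell, 3 stromal and 4 epithelial genes to at most 1.63, 0.365 and 1.39 CPM. The 4 myeloid genes summed to 0.962 and 2.12 CPM in controls and to 2.22 and 9.37 CPM in stimulated cells, mainly Adgre1, while Lyz2 was at 0 in every library; their part in the results was not tested.

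Transcripts of the proteasome rose together after stimulation. Of the 35 members, 28 were higher at an edgeR adjusted p under 0.05, none was lower and 7 did not pass, where 17.5% of all genes tested were higher and 18.3% lower. Both stimulated libraries lay above both controls for 34 members, against 34.4% of all genes tested, and only Psmc3ip overlapped. The median change was 0.82 on the log2 scale, a 1.77-fold rise, and members ranged from -0.03 to 1.18, while the median of all genes tested was -0.02 with quartiles of -0.52 and 0.45. At an unadjusted p under 0.05 there were 31 members, none of them lower.

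The set took a larger part of the libraries after stimulation. Members held 0.456% of all counts in control 1 (95% Wilson interval 0.454 to 0.459%), 0.420% in control 2 (0.418 to 0.422%), 0.716% in stimulated 1 (0.713 to 0.719%) and 0.658% in stimulated 2 (0.655 to 0.661%). Both stimulated libraries were above both controls, and the libraries of a group differed by more than their counting intervals, which cover counting error only. The plot of levels by library shows the same separation gene by gene.

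**Figure D1:**
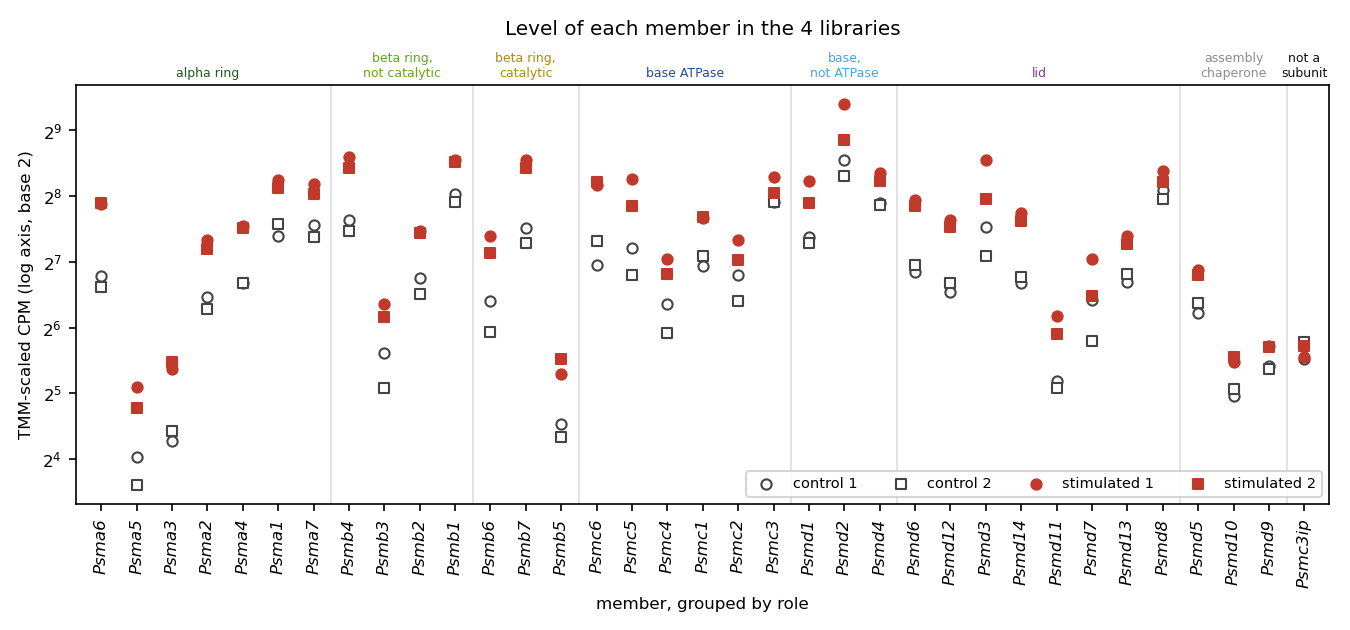
TMM-scaled CPM (log axis, base 2) of each of the 35 members in control 1 and 2 (open symbols) and stimulated 1 and 2 (filled symbols), grouped by role. Filled symbols lie above open ones for 34 members, and Psmc3ip is the exception.

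All 7 alpha ring genes rose, with a median change of 0.89 and a range of 0.63 to 1.18. The steepest was Psma6, with 110 and 97.9 CPM in controls 1 and 2 and 235 and 238 CPM in stimulated 1 and 2. Its levels more than doubled, at 2.27-fold, while its stimulated libraries were nearly equal (change 1.18 ± 0.14, edgeR adjusted p = 0.00139). Psma3 and Psma5 were the least abundant of the ring and rose by 1.07 ± 0.15 and 1.12 ± 0.21: Psma5 had 16.3 and 12.2 CPM in controls and 34.2 and 27.4 CPM in stimulated cells. Psma4, whose tail helps to close the entrance of the barrel, went from 102 and 103 to 187 and 184 CPM, the most even replicates of the ring, a change of 0.85 ± 0.13 (edgeR adjusted p = 0.00331). Psma2 rose by 0.89 ± 0.14 and Psma1 by 0.70 ± 0.14.

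The smallest rise of the alpha ring was that of Psma7, from 188 and 167 CPM to 290 and 261 CPM. This 1.55-fold difference (0.63 ± 0.15, edgeR adjusted p = 0.0159) lost its call without control 2 or stimulated 1, with an adjusted p of up to 0.0806. After a correction for transcript length and GC content, Psma1 changed by 0.34 (edgeR adjusted p = 0.0671) and Psma7 by 0.31 (0.065), so both calls ended there.

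All 7 beta ring genes rose as well, with a median change of 0.95. The 3 that carry the proteolytic sites were Psmb5, which cuts after hydrophobic residues, Psmb6, which cuts after acidic residues, and Psmb7, which cuts after basic residues. Psmb7 had 183 and 157 CPM in controls and 375 and 344 CPM in stimulated cells, a change of 1.08 ± 0.15 (edgeR adjusted p = 0.00247). Psmb6 went from 84.7 and 61.3 to 169 and 140 CPM, also 1.08, with a wider SE of 0.20 (edgeR adjusted p = 0.00664). Psmb5 went from 23.3 and 20.3 to 39.3 and 46 CPM, a change of 0.97 ± 0.16 (edgeR adjusted p = 0.00476). The groups did not overlap for any of these genes, and Psmb5 was the 1 whose second stimulated library was the higher.

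Among the beta subunits without a proteolytic site, Psmb4 rose most and Psmb1 least. Psmb4 went from 199 and 178 to 386 and 345 CPM (0.95 ± 0.15, edgeR adjusted p = 0.00363). Psmb1, the most abundant beta subunit of the controls in CPM, went from 262 and 240 to 375 and 367 CPM, a 1.48-fold rise of 0.56 ± 0.14 (edgeR adjusted p = 0.0204). Its call depended on the libraries used: it held without control 1 and ended without control 2, stimulated 1 or stimulated 2 (adjusted p up to 0.0933), and also after the length and GC correction (0.33, edgeR adjusted p = 0.0922). Psmb2 rose by 0.82 ± 0.14. Psmb3 rose by 0.89 ± 0.20, from 49.2 and 33.8 to 82.1 and 71.9 CPM, with its call lost without stimulated 1 (0.0533).

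Of the 6 ATPases of the base, which form the ring that unfolds substrates, 4 rose and 2 did not pass, with a median change of 0.72. Psmc6 had 124 and 159 CPM in controls and 288 and 298 CPM in stimulated cells, a change of 1.05 ± 0.17 (edgeR adjusted p = 0.00391). Psmc5 reached a similar 1.04 ± 0.20, from 148 and 112 to 306 and 231 CPM (edgeR adjusted p = 0.00887). The controls stood in opposite order in these genes, control 1 being the lower for Psmc6 and the higher for Psmc5. Psmc4 rose by 0.78 ± 0.18, lost without control 2 or stimulated 1 (adjusted p up to 0.0626), and Psmc1 by 0.65 ± 0.14, with 0.0507 without control 1.

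Psmc3 was the ATPase with the smallest difference. It had 240 and 241 CPM in controls and 312 and 266 CPM in stimulated cells, so the groups did not overlap, but the change of 0.27 ± 0.15 did not pass (edgeR adjusted p = 0.201). Psmc2 had 112 and 84.7 CPM in controls and 161 and 131 CPM in stimulated cells, a change of 0.57 ± 0.19 just short of the threshold (edgeR adjusted p = 0.0518, and 0.0247 in DESeq2). It passed in edgeR with median-ratio (RLE) scaling (edgeR adjusted p = 0.0461) and with no low-count filter (0.00313). With a replicate block on the number in the title it passed as well (2.35e-06). Its change was 0.78 without control 1, 0.74 without stimulated 2, 0.38 without control 2 and 0.41 without stimulated 1. In the controls Psmc3 was the most abundant ATPase in CPM, at 240 ± 1.03, and in the stimulated libraries it was at 289 ± 32.2 beside 293 ± 7.18 for Psmc6, a gap smaller than the SD of Psmc3.

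Of the base subunits without ATPase activity, 3 are members, while Adrm1 lies outside the symbol pattern. Psmd2, which docks ubiquitin and shuttle proteins, was the most abundant member in CPM, with 376 and 317 CPM in controls and 680 and 462 CPM in stimulated cells. Its stimulated libraries lay far apart, and the change of 0.72 ± 0.22 (edgeR adjusted p = 0.0406) was 0.41 without stimulated 1 (0.207); its call also ended without control 2, with upper quartile scaling (0.0561) and with total counts (0.0653). Psmd1, the other large scaffold of the base, went from 167 and 156 to 301 and 239 CPM (0.75 ± 0.16, edgeR adjusted p = 0.0126; 0.0674 without stimulated 1). Psmd4, a ubiquitin receptor, had 239 and 233 CPM in controls and 327 and 301 CPM in stimulated cells and did not pass (0.41 ± 0.14, edgeR adjusted p = 0.0545; 0.0191 in DESeq2).

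Of the 8 lid subunits among the members 6 rose, with a median change of 0.93, while Sem1 lies outside the symbol pattern. Psmd6, a scaffold subunit, had 115 and 124 CPM in controls and 246 and 231 CPM in stimulated cells, a change of 1.0 ± 0.14 (edgeR adjusted p = 0.00229). Psmd12 rose by 0.98 ± 0.14 and Psmd11 by 0.91 ± 0.15. Psmd14, the deubiquitinase that frees substrates of their chain, went from 102 and 109 to 215 and 197 CPM (0.96 ± 0.14, edgeR adjusted p = 0.00266). Psmd7, its inactive partner in the lid, had 85.5 and 55.4 CPM in controls and 132 and 89.7 CPM in stimulated cells. Its libraries lay far apart in both groups, and its change of 0.65 ± 0.27 did not pass (edgeR adjusted p = 0.115). It passed with no low-count filter (edgeR adjusted p = 0.000521) and with a replicate block on the number in the title (4.77e-08). Its change was 1.0 without control 1, 0.93 without stimulated 2, 0.37 without control 2 and 0.35 without stimulated 1.

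Psmd3 showed the widest interval among the lid subunits that rose, going from 185 and 137 to 377 and 249 CPM (0.96 ± 0.24, edgeR adjusted p = 0.0251). Leaving out control 2 or stimulated 1 raised its adjusted p above 0.05 (up to 0.0814). Psmd13 rose by 0.58 ± 0.14, with adjusted p up to 0.0881 without control 1 or stimulated 1. Psmd8 had the smallest difference among the lid members, at 274 and 249 CPM in controls and 334 and 298 CPM in stimulated cells. Its change of 0.27 ± 0.15 did not pass (edgeR adjusted p = 0.19) and ran from 0.19 to 0.38 with 1 library left out.

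Of the 3 chaperones of regulatory particle assembly 2 rose, and changes ran from 0.32 to 0.54. Psmd5 rose by 0.54 ± 0.14, from 74.5 and 82.7 to 117 and 111 CPM (edgeR adjusted p = 0.0219; up to 0.107 without control 1 or stimulated 1). Psmd10, also known as gankyrin, rose by 0.50 ± 0.14 (edgeR adjusted p = 0.0319), a call lost without any 1 of the 4 libraries (up to 0.148), with total counts (0.0652) and after the length and GC correction (0.18, edgeR adjusted p = 0.273). Psmd9 had 42.9 and 41.4 CPM in controls and 52.8 and 52.2 CPM in stimulated cells and did not pass (0.32 ± 0.13, edgeR adjusted p = 0.108), nor without any 1 library, though it did after that correction (0.40, edgeR adjusted p = 0.0361). Psmc3ip, the member that is no subunit, had 46.2 and 55.2 CPM in controls and 46.9 and 52.7 CPM in stimulated cells, with overlapping groups (-0.03 ± 0.16, edgeR adjusted p = 0.912). On 21.2% of its listed bases it overlaps the neighbouring gene Mlx, and whether counting used strand was not given in the sources used here.

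**Figure D2:**
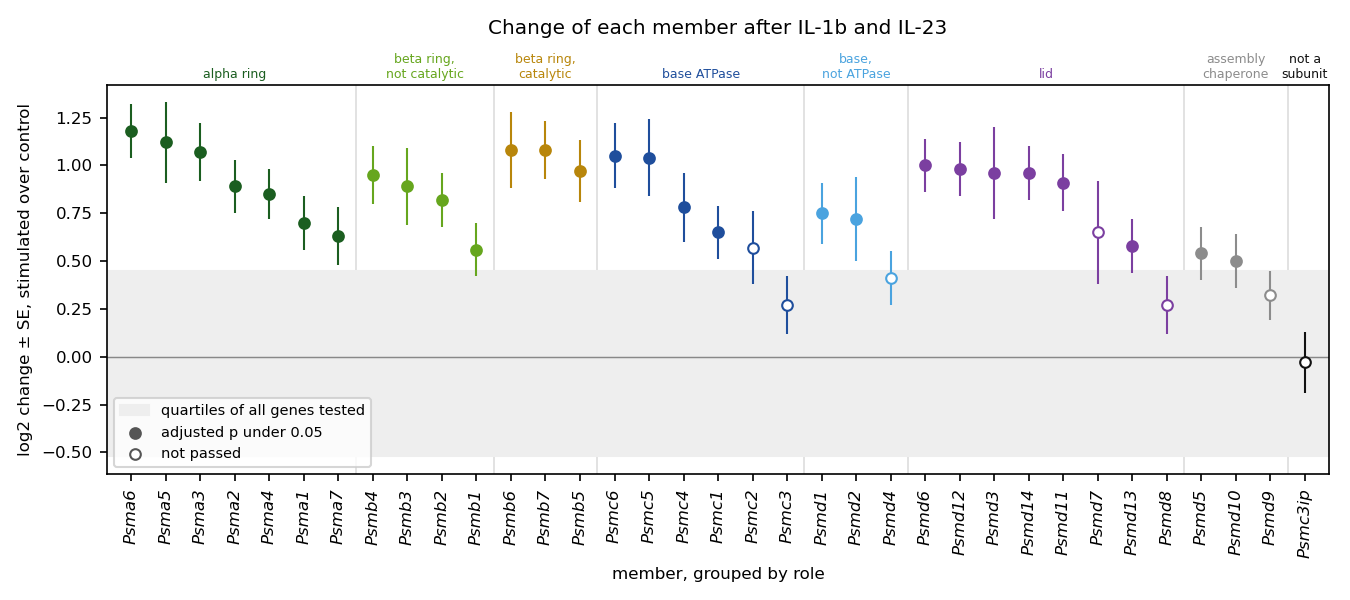
Log2 change of stimulated over control with its SE for each of the 35 members, grouped by role; filled points passed an edgeR adjusted p under 0.05, and the grey band spans the quartiles of all genes tested (-0.52 to 0.45). All 14 core genes are filled, and 7 regulatory genes are open.

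Core and regulatory members were compared by their counts and medians. All 14 core members rose, with a median change of 0.92, and 14 of 21 regulatory members rose, with a median of 0.65. Among regulatory members that are parts of the particle, 12 of 17 rose, with a median of 0.75. The core median exceeded the regulatory one by 0.27, and no test is given because the members were chosen as a list. That gap was 0.09 without stimulated 2 and 0.13 after the length and GC correction. With that correction 11 core and 14 regulatory members were higher, beside 18.9% of all genes tested. Stimulated 1 stood above stimulated 2 in 17 of 21 regulatory and 11 of 14 core members, against 6851 of 13838 genes tested. Without stimulated 1 the core median was 0.86 and the regulatory one 0.54.

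Levels per kilobase of listed length were also summed over each part of the particle. Core transcripts summed to 1115 and 1002 CPM per kilobase in controls and to 1986 and 1864 in stimulated cells. Regulatory transcripts summed to 1121 and 1071 CPM per kilobase in controls and to 1869 and 1621 in stimulated cells. The ratio of core to regulatory was 0.995 and 0.936 in controls and 1.06 and 1.15 in stimulated libraries, without overlap. An exact two-sided permutation test of 2 libraries against 2 cannot go below p = 0.333, so no test was made. With the length of the GENCODE principal transcript in place of the listed length the ratio was 0.899 and 0.852 in controls and 0.973 and 1.06 in stimulated libraries. Over the members that are parts of the particle, with listed length, it was 1.07 and 1.02 against 1.12 and 1.23. Adrm1 and Sem1, subunits outside the symbol pattern, are in none of these sums. Sem1 had 312 and 199 CPM in controls and 344 and 273 CPM in stimulated cells, and its effect on the ratio was not tested.

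The inducible catalytic subunits were set against the constitutive ones they replace. Psmb8 rose by 1.41 ± 0.14, Psmb9 by 1.44 ± 0.18 and Psmb10 by 1.09 ± 0.14 (edgeR adjusted p = 0.000737, 0.00171 and 0.00196), beside 0.97, 1.08 and 1.08 for Psmb5, Psmb6 and Psmb7. Per kilobase of listed length the Psmb8 to Psmb5 ratio was 2.19 and 2.49 in controls and 3.42 and 2.97 in stimulated libraries. The Psmb9 to Psmb6 ratio was 0.408 and 0.422 in controls and 0.519 and 0.548 in stimulated libraries, so both ratios were higher after stimulation in each library. The Psmb10 to Psmb7 ratio overlapped between groups, at 0.301 and 0.308 in controls and 0.306 and 0.307 in stimulated libraries. These ratios carry no test. Psmb5 shares 54.1% and Psmb7 28.1% of their 50-base stretches with other genes, so their levels are uncertain. Such stretches were not measured for Psmb8, Psmb9 and Psmb10.

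**Figure D3:**
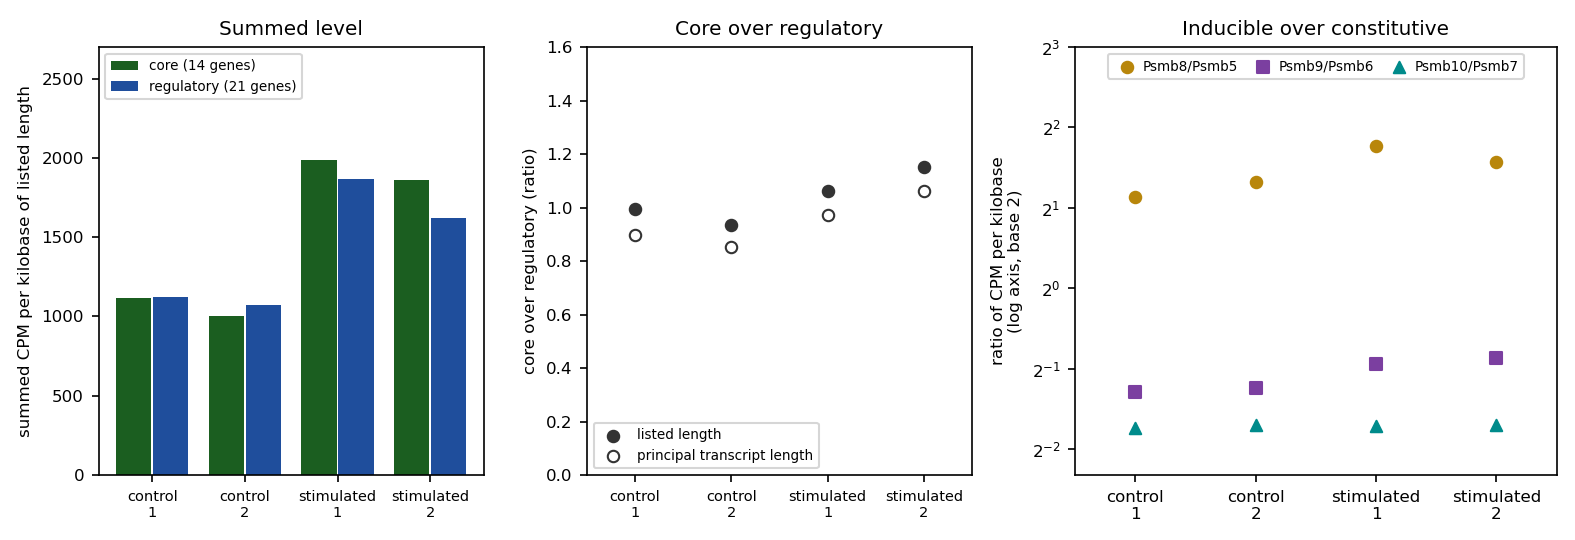
Left, summed CPM per kilobase of listed length of core and regulatory members in each library; middle, their ratio with listed (filled) or principal transcript length (open); right, ratio of CPM per kilobase of each inducible catalytic subunit to its constitutive counterpart (log axis, base 2). Core over regulatory is 0.936 to 0.995 in controls and 1.06 to 1.15 in stimulated libraries with listed length, and Psmb10 over Psmb7 stays between 0.301 and 0.308.

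Levels per length differed widely between subunits that are built into the same particle. Per kilobase of listed length Psmb1 was the highest member, at 242 CPM per kilobase in controls and 358 after stimulation. Next in controls were Psmd8 at 170, Psmb7 at 140 and Psmb4 at 136, and after stimulation Psmb7 at 296 and Psmb4 at 264 stood above Psmd8 at 205. The lowest were Psma3 and Psmd11, at 5.24 and 5.52 CPM per kilobase in controls and 11 and 10.4 after stimulation, and Psmd9 at 9.24 and 11.5. The order rests on the length used: per kilobase of principal transcript, Psma7 had the highest control level, at 194 against 57.9 per kilobase of listed length. Psma3 stayed lowest on that scale, at 7.17 CPM per kilobase in controls.

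Several of the members with low levels have close copies elsewhere in the genome. Of the 50-base stretches of protein-coding transcripts, 55.8% of Psmb3, 55.4% of Psma5, 54.1% of Psmb5 and 22.0% of Psma3 also occur in other annotated genes, mostly pseudogenes. For Psma1, Psma6, Psma7, Psmb2 and Psmb4 none do. Shares over 10% were also found for Psmb7 (28.1%, with Nek6), Psmc3ip (27.1%, with Mlx) and Psmd2 (25.6%). Psma4 (23.7%), Psmc1 (17.6%), Psmd11 (16.7%) and Psmd13 (11.8%, mostly with Sirt3) had them too. Nek6, Mlx and Sirt3 are protein-coding neighbours that overlap these members, rather than pseudogenes. The handling of reads that match several places was not given in the sources used here, and the part of these shared stretches in the levels was not tested. Without the members that share over 10% of their stretches, 18 of the other 24 rose, beside 17.5% of all genes tested. These were 8 of 8 in the core and 10 of 16 among the regulatory members.

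Replicate libraries differed in a way that many members shared. Stimulated 1 was above stimulated 2 for 28 of 35 members and control 1 above control 2 for 22 of 35, against 6851 and 6828 of 13838 genes tested. The largest gaps between stimulated libraries were in Psmd3, Psmd2 and Psmd7, at 0.60, 0.56 and 0.55 on the log2 scale, and in the same genes control 1 exceeded control 2 by 0.43, 0.25 and 0.63. Psma5, Psmb3, Psmb6, Psmc2, Psmc4 and Psmc5 also had control gaps between 0.40 and 0.54. Across the 35 members the gap between controls correlated with the GC content of the principal transcript (Pearson r = 0.54, Spearman rho = 0.51) and that between stimulated libraries less closely (0.35 and 0.37). The log2 change itself had r = -0.22 and rho = -0.20 with GC content, where the points share libraries and are not independent.

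Genes that assemble the core rose with it. All 5 core assembly chaperones on a list written from textbook knowledge rose, with a median of 0.90, where 17.5% of all genes tested were higher. Pomp, which completes the beta ring, went from 110 and 94.7 to 213 and 195 CPM (0.99 ± 0.15, edgeR adjusted p = 0.00305). Psmg1 and Psmg2, partners in alpha ring assembly, rose by 0.90 ± 0.14 and 0.69 ± 0.14, and their relatives Psmg3 and Psmg4 by 0.83 ± 0.21 and 1.27 ± 0.22. Psmg2 and Psmg3 did not pass after the length and GC correction (0.0585 and 0.142), nor Psmg3 with total counts (0.0545). Psmg2 also lost its call without stimulated 1 (0.63, edgeR adjusted p = 0.0536), and Psmg3 without control 1 (0.69, 0.075) and stimulated 2 (0.58, 0.101). Of the 2 subunits outside the symbol pattern, neither passed: Adrm1, a ubiquitin receptor of the base, had 0.46 ± 0.16 (edgeR adjusted p = 0.0645, and 0.0254 after that correction) and Sem1, a small lid subunit, 0.27 ± 0.24 with overlapping groups, a change of -0.02 without control 2.

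Of 5 genes for caps other than the regulatory particle and for a core inhibitor, 3 rose, where 17.5% of all genes tested were higher. Psme2, a subunit of the cytokine-inducible activator, had the steepest rise around the proteasome, from 70 and 54.3 to 268 and 221 CPM (1.98 ± 0.19, edgeR adjusted p = 0.000686), though it has a close copy in Psme2b. Its partner Psme1 rose by 0.72 ± 0.15 and the nuclear activator Psme3 by 0.98 ± 0.16. Psme4, the large activator, had 0.32 ± 0.13 (edgeR adjusted p = 0.11, and 0.0271 after the length and GC correction) and Psmf1, an inhibitor of the core, 0.29 ± 0.14 (0.164), and neither passed in the main comparison. Of 5 genes for proteins bound to the particle 3 rose: the deubiquitinases Usp14 by 0.95 ± 0.16 and Uchl5 by 0.92 ± 0.13, and the ligase Ube3c by 0.64 ± 0.14, a call that ended without stimulated 1 (0.55, edgeR adjusted p = 0.0661). Ube3a had 0.43 ± 0.19, passing without control 2 (0.67, edgeR adjusted p = 0.0337), after the correction (0.022) and with no low-count filter (0.0477), and the adaptor Ecpas 0.06 ± 0.13, turning to -0.03 with total counts.

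Of 8 genes in the transcriptional control of the proteasome 1 rose and 1 fell, no more than the shares of all genes tested (17.5% higher and 18.3% lower). Nfe2l1, the factor that restores proteasome expression when the proteasome is inhibited, rose from 193 and 209 to 340 and 371 CPM (0.82 ± 0.14, edgeR adjusted p = 0.00542). Nfe2l2, its relative in the oxidative stress response, fell from 112 and 121 to 82.2 and 71.1 CPM (-0.61 ± 0.14, edgeR adjusted p = 0.017). That call ended without control 2 (-0.55, edgeR adjusted p = 0.0577) and without stimulated 2 (-0.48, 0.108). The genes that release and process the Nfe2l1 protein did not pass: Ddi2 had -0.12 ± 0.14, Ngly1 -0.30 ± 0.17 and Vcp 0.32 ± 0.14. Nor did the CCAAT-binding subunits Nfya, Nfyb and Nfyc, at 0.05 ± 0.14, 0.39 ± 0.18 and 0.47 ± 0.24, though Nfyb did without control 2 (0.60, edgeR adjusted p = 0.0493). Ngly1 and Vcp passed after the length and GC correction, at -0.45 (0.0395) and 0.37 (0.0453).

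Upstream of the proteasome, 2 of the 4 ubiquitin and E1 genes listed rose. Uba1, the main ubiquitin-activating enzyme, went from 476 and 459 to 830 and 657 CPM (0.67 ± 0.17, edgeR adjusted p = 0.0222). Leaving out control 2 (0.64, edgeR adjusted p = 0.0633) or stimulated 1 (0.49, 0.124) ended its call. Rps27a, a fusion of ubiquitin with a ribosomal protein, rose by 1.63 ± 0.30 (edgeR adjusted p = 0.00661). It was low, at 3.78 and 4 CPM in controls and an uneven 8.99 and 15.1 CPM in stimulated cells. Stretches that it shares with other genes were not measured, so its level is uncertain. The polyubiquitin gene Ubb, with a wide 0.31 ± 0.38, and Uba6, another E1, at 0.14 ± 0.18, did not pass. Of 4 shuttle factors listed, which carry ubiquitinated proteins to the particle, Rad23b rose by 0.69 ± 0.16 and Ubqln1 by 0.59 ± 0.17 (edgeR adjusted p = 0.0364; 0.0531 with upper quartile scaling and 0.077 with total counts). Rad23b lost its call without control 1 (0.54, edgeR adjusted p = 0.0801) and stimulated 1 (0.67, 0.0531), and Ubqln1 without control 1 (0.41, 0.163) and stimulated 2 (0.51, 0.111). Ubqln4 had 0.48 ± 0.17 and Ubqln2 -0.43 ± 0.18, and neither passed. Ubqln4 did without stimulated 2 (0.69, edgeR adjusted p = 0.0264), after the length and GC correction (0.67, 0.015), with no low-count filter (0.0161) and in DESeq2 (0.0404). Over the 8 lists, 19 of 36 tested genes rose and 1 fell, with a median of 0.61, beside 17.5% higher and 18.3% lower of all genes tested.

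**Figure D4:**
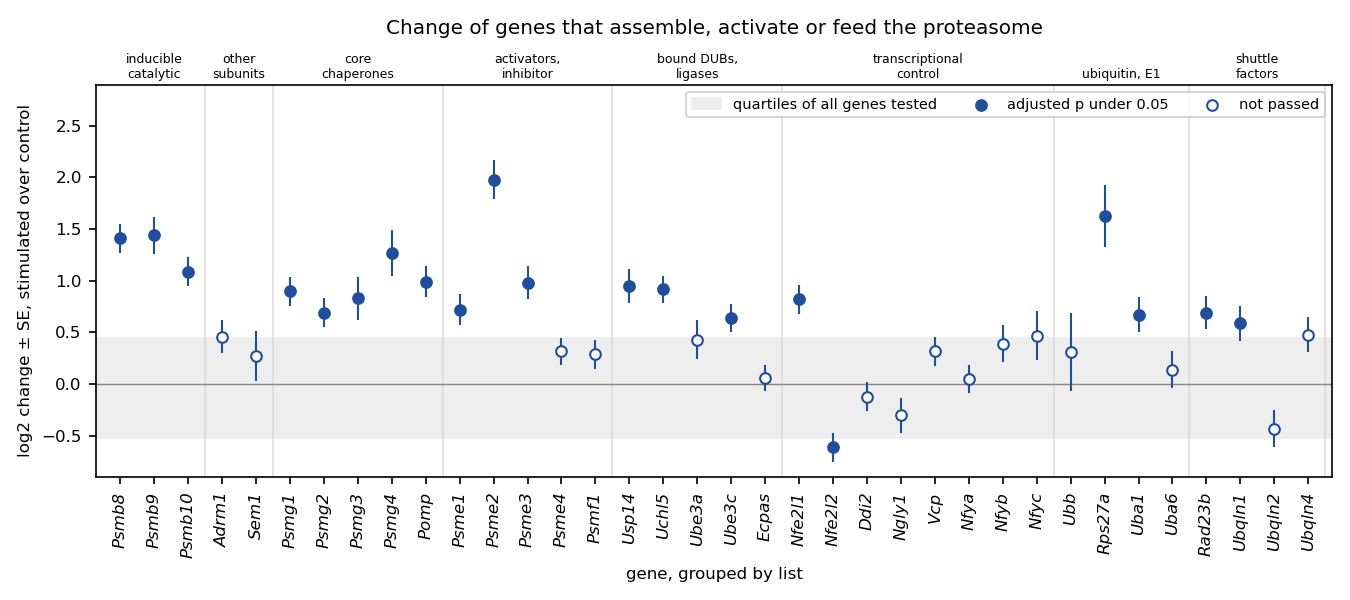
Log2 change of stimulated over control with its SE for 36 tested genes of 8 lists around the proteasome; filled points passed an edgeR adjusted p under 0.05, and the grey band spans the quartiles of all genes tested (-0.52 to 0.45). Psme2 is highest at 1.98 and Nfe2l2 is the 1 filled point below 0, at -0.61.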

How the data were processed

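Gene counts of 4 RNA-seq libraries of Mnk3 cells were used, 2 of untreated and 2 of stimulated cells. Per the file headers, the authors deposited whole-number, unnormalised counts for 41388 genes by Ensembl identifier. Per the submitters' processing notes, the tools included STAR, Subread and featureCounts; versions, roles, genome build and annotation were not given in the sources used here. Identifiers were matched to GENCODE M21 (40254 matched). Promoter sequences are RefSeq's in GRCm38.p6. The main comparison, stimulated against control, used edgeR (version 4.0.16, with limma 3.58.1 and R 4.3.3) and its quasi-likelihood test after filterByExpr and TMM scaling, robust, with treatment as the only term, with Benjamini-Hochberg adjustment over 13838 genes. The fit was tested on simulated data. Alternatives were other scalings, low-count filters, DESeq2 1.42.0, limma-voom, estimation without robustness, a replicate block, each library left out and an adjusted p of 0.01. Chosen after seeing the data were a loess correction (span 0.3) for length and GC content, principal transcript lengths and leaving out members that share stretches with other genes. The loess correction covered the 11875 of 13838 tested genes that had a length and GC value, and the others stayed uncorrected in the same fit. Named genes were all members and all tested genes of 8 textbook lists, some of whose genes are not reported here; the members and lists were chosen with earlier results of these data known.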

Additional observations from a re-analysis of the deposited data

How the results depend on the processing

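No member was lower in any fit, and the directions of the 34 members other than Psmc3ip did not turn in any of the 14 alternative fits over all genes. With each library left out in turn, where a lone library of a group is assumed to vary like the others, between 18 and 28 members were higher, 11 to 14 core and 7 to 15 regulatory. The lowest counts came without stimulated 1, and over all genes 1593 to 2001 were then higher and 1665 to 2035 lower. The core median ranged from 0.86 to 1.02, the regulatory one from 0.54 to 0.91 and the gap from 0.09 to 0.32, the ends 0.91 and 0.09 being without stimulated 2. In all 4 of these fits 17 members passed, 11 core and 6 regulatory. At an adjusted p under 0.01, 16 members were higher, 6 of them regulatory, with 1244 genes higher and 1324 lower in all. After the length and GC correction 25 members were higher, beside 18.9% of all genes tested higher and 17.9% lower. The core median was then 0.73 and the gap 0.13, and the cause was not tested. Leaving out members with copies counts fewer genes of the main fit. There 18 of 24 members and 8 of 8 core members were higher, beside 17.5% of all genes tested.

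A replicate block used the number in the title, which no label ties to a shared culture or day. It gave 33 members higher, 14 core and 19 regulatory, and 3986 genes higher and 4000 lower in all. Psmc2, Psmd4, Psmd7, Psmd8 and Psmd9, which did not pass in the main comparison, passed there. The difference of library 1 from library 2 in controls correlated at 0.551 over genes with that in stimulated cells.

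Dividing by another length moved ratios by construction. Core over regulatory, 0.966 in controls and 1.1 in stimulated libraries, was 0.875 and 1.02 with principal transcript length and 0.561 and 0.639 with no division. Psmb8 over Psmb5, 2.34 and 3.2, became 4.07 and 5.54, or 7.36 and 10.1. Psmb9 over Psmb6, 0.415 and 0.534, became 0.479 and 0.616, or 0.812 and 1.04. Psmb10 over Psmb7, 0.304 and 0.306, became 0.281 and 0.283, or 0.319 and 0.321.

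Small changes that did not pass turned sign. With each library left out in turn, Psmc3ip ranged from -0.15 to 0.11 (0.05 without stimulated 1), Sem1 from -0.02 to 0.63, Ddi2 from -0.24 to 0.00, Nfya from -0.03 to 0.14, Ubb from -0.16 to 0.76 (-0.03 without control 2) and Uba6 from -0.04 to 0.34. With total counts Ecpas was at -0.03 and Nfya at -0.04. After the length and GC correction Sem1 was at -0.04 and Ddi2 at 0.12. With no filter beyond 1 count, Psmc2 (0.00313) and Psmd7 (0.000521) passed as well. With 2 libraries a group, the spread of a gene is poorly known.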
